A study of Mus musculus with 6 samples.

Results

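Interleukin 12 (IL-12), interleukin 18 (IL-18) and interferon gamma (IFN-gamma) form the cytokine circuit described here, through 8 genes. These are the IL-12 receptor genes Il12rb1 and Il12rb2, the IL-18 receptor genes Il18r1 and Il18rap, the related receptor gene Il1rl1, the cytokine gene Ifng and the IFN-gamma receptor genes Ifngr1 and Ifngr2. They were chosen by name, and all 8 were found among the 55291 gene symbols of the deposited count table. RNA was sequenced from ILC1s (innate lymphoid cells of type 1) and from natural killer (NK) cells, both sorted from subcutaneous tumours of wild-type C57BL/6 mice on day 14, with 3 libraries of each. The tumours grew from MC38 cells, a colon carcinoma line of C57BL/6 origin, and neither cell type carried a further treatment or genetic change. Neither the sort markers nor the number of mice behind each sample is stated in the labels, and p-values therefore refer to the spread among these samples, which may be technical.

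IL-12 and IL-18 are made mainly by macrophages and dendritic cells and act together on group 1 innate lymphoid cells, where they are the classical stimulus for IFN-gamma. IL-12 binds a receptor of the chains IL-12Rb1 and IL-12Rb2 and signals through JAK2, TYK2 and STAT4, while IL-18 binds a receptor of Il18r1 and Il18rap that signals through MyD88 and NF-kappaB. The secreted IFN-gamma binds IFNGR1 and IFNGR2 on many cells and signals through JAK1 and JAK2.

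The libraries held 16931099 to 20224847 counts in ILC1s and 19551574 to 19814075 counts in NK cells. Levels are given as CPM, counts relative to the library size after TMM scaling. The summed level of 8 ILC1 marker genes was 5296 to 8256 CPM in ILC1s, against 489 to 500.3 CPM in NK cells. That of 7 NK cell marker genes was 350.2 to 467 CPM in ILC1s, against 1187 to 1850.0 CPM in NK cells. For 6 marker genes that both cell types share it was 4116 to 4920 CPM in ILC1s, against 5258 to 8206 CPM in NK cells. Of these 6, Ncr1, Klrb1c, Klrk1 and Cd7 were lower in every ILC1 library, as were 13.3% of all tested genes. Their log2 fold changes (ILC1 minus NK) ran from -1.36 to -0.72. Tbx21 and Il2rb overlapped between the cell types. A single gene of the ILC1 list made up most of its sum in every library. In the NK cell list, Itgam, which is also among the macrophage and monocyte genes, had 312 CPM in ILC1 replicate 3. Libraries stood apart within both cell types. Of 16 macrophage and monocyte genes, 15 were highest in ILC1 replicate 3 (24.8% of all tested genes were highest there), with a summed level of 15600.0 CPM against 780.5 to 1279 CPM in the other 5 libraries. Of 10 tested fibroblast and matrix genes, 9 were higher in ILC1 replicates 1 and 2 and NK replicate 3 than in the other 3 libraries (21.5% of all tested genes). These 3 libraries are called the matrix-rich libraries. The 8 genes, and some of the other genes whose values rest on any of these libraries, are also given without them. In sorted bulk samples, fewer cells of a type and less RNA per cell cannot be told apart.

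Both IL-18 receptor genes, the IL-12 receptor gene Il12rb2, Ifng and Ifngr1 were lower in every ILC1 library than in every NK library, and Ifngr2 was higher in every ILC1 library. Il12rb1 and Il1rl1 overlapped between the cell types. With edgeR's quasi-likelihood test over 14475 genes, 0 of the 8 genes passed a Benjamini-Hochberg adjusted p of 0.05, where 0.0829% of all genes passed (0.076% higher and 0.00691% lower in ILC1s). At an unadjusted p of 0.05, 1 was higher and 4 were lower in ILC1s, where 15.8% of all genes passed (6.95% higher and 8.82% lower). DESeq2 called 1 higher (Ifngr2) and 4 lower (Il18r1, Il18rap, Il12rb2 and Ifngr1), where it called 8.1% of genes (3.42% higher and 4.69% lower). By limma-voom 0 of the 8 were called, with 0.111% of genes called (0.0967% higher and 0.0138% lower). Without the filter on low counts edgeR called Il18r1 and Il18rap, where 0.527% of genes were called, and limma-voom with library weights called the same 5 genes as DESeq2, where 15.9% were called. Of the 8 genes, 6 did not overlap between the cell types, 1 higher and 5 lower, against 25.8% of all tested genes (12.5% higher and 13.3% lower). The median log2 fold change (ILC1 minus NK) of the 8 was -0.84, against 0.081 over all tested genes.

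**Figure D1:**
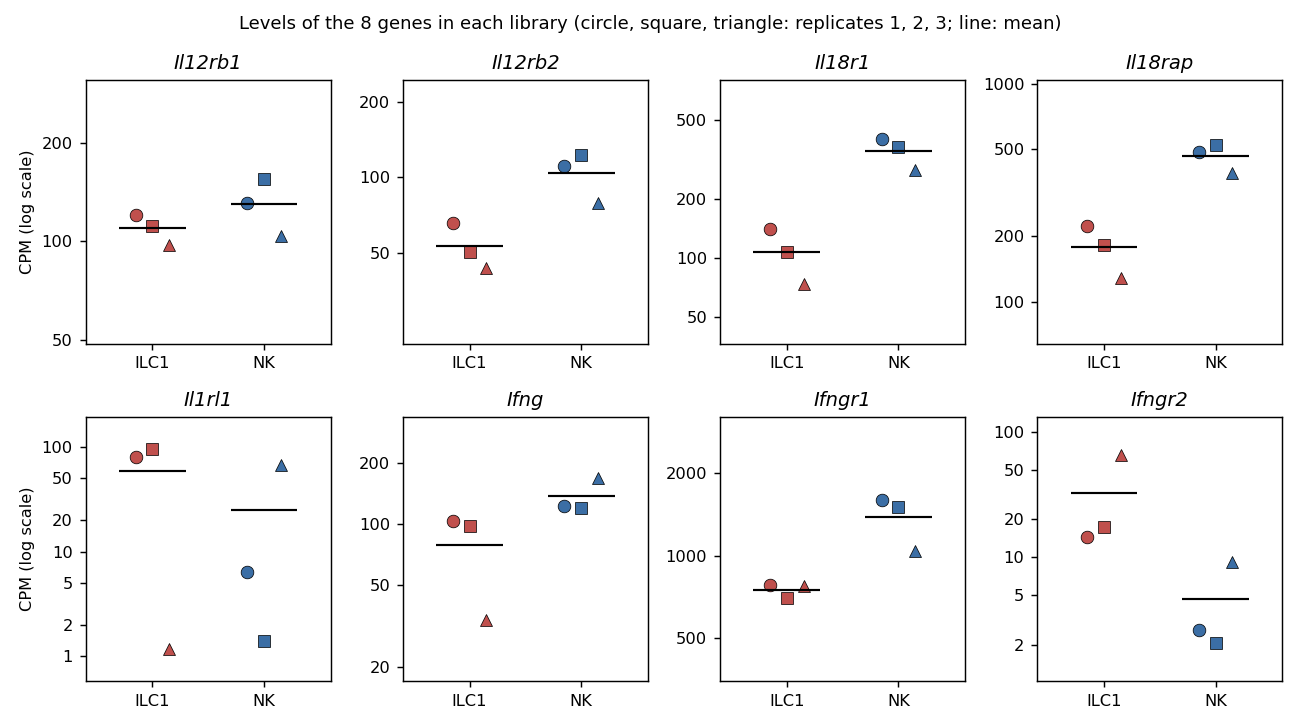
Level of each of the 8 genes in CPM (log axis) in the 3 ILC1 libraries (left, red) and the 3 NK libraries (right, blue), with circle, square and triangle for replicates 1, 2 and 3 and a line at the mean. The ILC1 points lie below the NK points for Il12rb2, Il18r1, Il18rap, Ifng and Ifngr1 and above them for Ifngr2, while Il1rl1 is high in ILC1 replicates 1 and 2 and NK replicate 3.

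Il18r1, which encodes the chain of the IL-18 receptor that binds IL-18, had 141.0, 107.8 and 73.8 CPM in ILC1 replicates 1 to 3 and 399.8, 363 and 280.4 CPM in NK replicates 1 to 3. The highest ILC1 library was below the lowest NK library. The means were 107.5 ± 33.6 CPM in ILC1s, against 347.9 ± 61.2 CPM in NK cells (SD, n = 3 each), a 3.24-fold lower level in ILC1s. The log2 fold change was -1.69 ± 0.28 (SE), with an edgeR adjusted p of 0.106 and a DESeq2 adjusted p of 4.2e-07. Il18rap, the accessory chain needed for signalling, had 222, 182 and 128 CPM in ILC1 replicates 1 to 3 and 487, 522 and 390.1 CPM in NK replicates 1 to 3. The order of the ILC1 libraries was that of Il18r1, with replicate 3 lowest, and the cell types again did not overlap. For Il18rap it was -1.39 ± 0.24 (SE), with an edgeR adjusted p of 0.114 and a DESeq2 adjusted p of 2.99e-06.

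Neither gene's direction rested on the libraries that stand apart. In the matrix-rich libraries alone, with 1 NK library assumed to vary like the ILC1 libraries, the log2 fold change was -1.21 for Il18r1 and -0.99 for Il18rap. Without NK replicate 3, Il18r1 passed edgeR's test (adjusted p = 0.0468, where 3% of genes were called) and Il18rap did not (adjusted p = 0.0509). Across the 16 alternative fits Il18r1 ranged from -1.93 to -1.17 and Il18rap from -1.58 to -0.95.

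On GRCm38, Il18r1 (chr1:40465552-40500854) and Il18rap (chr1:40515362-40551705) lie side by side on the forward strand, with Il1rl1 (chr1:40429570-40465415) directly before Il18r1. All 3 are annotated as protein-coding, and counts refer to the exons of the whole gene. The starts of Il18r1 and Il18rap are 49.8 kb apart. Promoters from 250 bases before to 50 bases after the start were taken from RefSeq on GRCm38.p6, which held 10 entries for 7 of the 8 genes. Those below are shown because Il18r1, Il18rap and Il12rb2 were lower in every ILC1 library and encode receptor chains for the cytokines that induce Ifng, whose window is shown with them. Capitals mark matches, on either strand, to 5 motifs of factors known in these cells: the T-box half-site GTGTGA, the STAT motif TTCNNNGAA, the RUNX motif TGTGGT, the AP-1 motif TGANTCA and the GATA motif AGATAA.
Il18r1, chr1:40465756-40466055, forward strand: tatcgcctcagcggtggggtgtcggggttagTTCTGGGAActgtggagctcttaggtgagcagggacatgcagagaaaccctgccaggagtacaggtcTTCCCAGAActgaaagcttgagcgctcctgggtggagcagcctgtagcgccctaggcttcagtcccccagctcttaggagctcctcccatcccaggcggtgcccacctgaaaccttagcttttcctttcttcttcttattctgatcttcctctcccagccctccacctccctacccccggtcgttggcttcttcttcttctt
Il18rap, chr1:40515112-40515411, forward strand: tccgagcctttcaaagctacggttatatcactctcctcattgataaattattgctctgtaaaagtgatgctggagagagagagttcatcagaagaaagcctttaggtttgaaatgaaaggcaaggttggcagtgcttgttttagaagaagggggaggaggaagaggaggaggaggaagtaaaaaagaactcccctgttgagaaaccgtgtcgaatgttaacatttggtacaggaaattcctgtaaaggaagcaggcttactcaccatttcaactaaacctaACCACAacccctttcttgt
Il12rb2, chr6:67376139-67376438, reverse strand: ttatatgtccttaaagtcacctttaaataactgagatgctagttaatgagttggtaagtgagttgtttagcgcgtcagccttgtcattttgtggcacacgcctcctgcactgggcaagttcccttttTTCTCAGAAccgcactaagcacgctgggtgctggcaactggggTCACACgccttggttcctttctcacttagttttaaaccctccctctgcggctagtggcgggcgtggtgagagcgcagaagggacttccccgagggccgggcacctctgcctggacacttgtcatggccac
Ifng, chr10:118440796-118441095, forward strand: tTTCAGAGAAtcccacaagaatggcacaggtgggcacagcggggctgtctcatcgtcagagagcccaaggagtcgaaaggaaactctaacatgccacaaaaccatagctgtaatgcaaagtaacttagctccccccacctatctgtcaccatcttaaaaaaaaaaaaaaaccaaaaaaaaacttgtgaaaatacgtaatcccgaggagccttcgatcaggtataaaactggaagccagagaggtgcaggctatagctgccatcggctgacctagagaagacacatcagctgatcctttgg

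Il18r1 has 3 windows in the table, and the one shown was chosen after the matches were seen. It held STAT matches from position -219 to -211 and from -152 to -144, counted from the start base as 0, while another of the 3 held only a RUNX match from 21 to 26 and the remaining one held no match. Il18rap held a RUNX match from 31 to 36. Il12rb2 held a STAT match from -123 to -115 and a T-box match from -80 to -75, and Ifng a STAT match from -249 to -241. No match overlapped another. Of 32851 promoter windows, 8.3% held the STAT motif, 14.5% the T-box half-site, 16.8% the RUNX motif, 7.81% the AP-1 motif and 11.2% the GATA motif. A match is a description of the letters and was not tested as a binding site.

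Il12rb2, the signalling chain that recruits STAT4, had 65.5, 50.4 and 43.4 CPM in ILC1 replicates 1 to 3 and 111, 123 and 78.8 CPM in NK replicates 1 to 3. ILC1 replicate 3 was lowest and no ILC1 library reached the lowest NK library. The log2 fold change was -0.97 ± 0.23 (SE), a 1.96-fold lower level in ILC1s, with an edgeR adjusted p of 0.170 and a DESeq2 adjusted p of 0.00832. It was -0.48 in the matrix-rich libraries alone. Il12rb2 lies on the reverse strand (chr6:67291318-67376188), and 40.04% of its exon bases are also exons of Serbp1 on the forward strand. Serbp1 had 751 ± 44.3 CPM in ILC1s, against 732 ± 69.9 CPM in NK cells (SD, n = 3 each), and the strand setting of the counting is not given, so reads of that stretch may be missing from the Il12rb2 counts or belong to Serbp1.

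Il12rb1, the chain that IL-12 and IL-23 receptors share, had 120.2, 111 and 97.7 CPM in ILC1 replicates 1 to 3 and 131, 155 and 104 CPM in NK replicates 1 to 3. The ranges overlapped, since ILC1 replicates 1 and 2 were above NK replicate 3. The log2 fold change was -0.25 ± 0.18 (SE, edgeR adjusted p = 0.554), and it was 0.11 in the matrix-rich libraries alone, where its sign was the opposite. Il12rb1 (chr8:70808449-70821424) lies on the forward strand and shares no annotated exon base with another gene.

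Il1rl1 encodes ST2, the receptor of interleukin 33 (IL-33), a relative of the IL-18 receptor that is best known from group 2 innate lymphoid cells, mast cells and regulatory T cells. It had 79.8, 96.5 and 1.16 CPM in ILC1 replicates 1 to 3 and 6.34, 1.39 and 67.5 CPM in NK replicates 1 to 3. The 3 high values were those of the matrix-rich libraries, and within each cell type the lowest and highest libraries were far apart. Its log2 fold change was 1.24 ± 1.76 (SE, edgeR adjusted p = 0.753). It was 3.94 without NK replicate 3 (adjusted p = 0.251) and 0.34 in the matrix-rich libraries alone.

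The sum of 11 fibroblast and matrix genes, leaving out Fn1, was 1701, 2419 and 78.9 CPM in ILC1 replicates 1 to 3 and 16.03, 23.6 and 1400.0 CPM in NK replicates 1 to 3. Fn1 was left out after its values were seen, since it was at 5896 CPM in ILC1 replicate 3 and at no more than 575 CPM in any other library. With Fn1, the sum of the 12 genes was 2244 to 5975 CPM in ILC1s, against 19.03 to 1828 CPM in NK cells. None of the 12 was at 0 in all libraries, and Lum and Fap were below 1 CPM in each. The collagen gene Col3a1 was at 472, 762 and 20.8 CPM in ILC1 replicates 1 to 3 and at 0.350, 4.16 and 403 CPM in NK replicates 1 to 3. The part of these cells in the Il1rl1 level was not tested.

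For none of the 3 cell types in which ST2 is best known were the summed markers higher in all 3 matrix-rich libraries than in the other 3. No gene was left out of these sums. The ILC2 sum missed this only through ILC1 replicate 3. It was 163 and 133 CPM in ILC1 replicates 1 and 2 and 152 CPM in NK replicate 3, against 112 and 107 CPM in NK replicates 1 and 2. The sum of all 12 matrix genes, with Fn1, also missed it only through ILC1 replicate 3. The course of the ILC2 sum rested on Arg1, with 77.7 and 53.0 CPM in ILC1 replicates 1 and 2 and 74.5 CPM in NK replicate 3. In NK replicates 1 and 2 Arg1 had 17.9 and 15.2 CPM. Areg, at lower levels, went the same way. Gata3 and Klrg1 were lower in ILC1 replicates 1 and 2 than in NK replicates 1 and 2. Mast cell and basophil genes (9 listed) summed to 85.1 to 122 CPM in ILC1s, against to 92.0 to 274 CPM in NK cells, highest in NK replicate 1, where the mast cell protease gene Cpa3 had 16.5 CPM against at most 2.77 CPM elsewhere. The ILC2 cytokine gene Il5 was at no more than 0.111 CPM in any library. The 6 regulatory T cell genes summed to 152 to 171 CPM in ILC1s, against 84.8 to 131 CPM in NK cells. Of these, the IL-2 receptor gene Il2ra had 80.2 ± 8.10 CPM in ILC1s, against 15.7 ± 4.62 CPM in NK cells, and the chemokine receptor gene Ccr8 had 14.7 ± 2.94 CPM in ILC1s, against 0.927 ± 0.329 CPM in NK cells (SD, n = 3 each). Both, as well as Ikzf4 and narrowly Tnfrsf4, were higher in every ILC1 library, where 12.5% of all tested genes were. Tnfrsf18, the highest of the 6 by mean, overlapped, with 60.8 to 62.4 CPM in ILC1s, against 58.1 to 113.9 CPM in NK cells (log2 fold change -0.49). The part of regulatory T cells in the Il1rl1 level was not tested. The lineage factor Foxp3 had 0.890 to 1.12 CPM in ILC1s, against 0.205 to 2.15 CPM in NK cells. The ILC2 list summed to 133 to 4720.0 CPM in ILC1s, against to 107 to 152 CPM in NK cells, and 4608 CPM of the highest value was Arg1, which macrophages also express. IL-33 mRNA itself (Il33) did not exceed 0.480 CPM in any library.

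**Figure D2:**
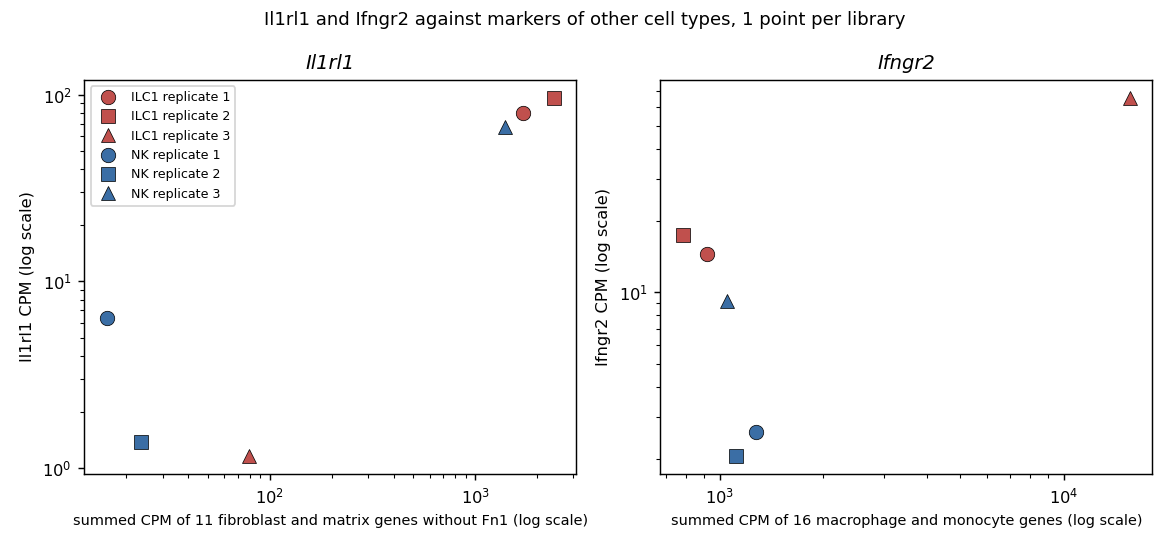
Il1rl1 in CPM against the summed CPM of 11 fibroblast and matrix genes without Fn1 (left), and Ifngr2 in CPM against that of 16 macrophage and monocyte genes (right), on log axes with 1 point per library (ILC1 red, NK blue). The 3 libraries with at least 1400.0 CPM of matrix genes have 67.5 to 96.5 CPM of Il1rl1 and the others at most 6.34 CPM; for Ifngr2, ILC1 replicate 3 is highest on both axes.

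Il1rl1 has separate starts for its transcripts, and counts per gene do not tell them apart. Both RefSeq promoter windows are shown because in mouse the upstream start is known from mast cells and the downstream one from fibroblasts. The first held a GATA match from -217 to -212, and the second a GATA match from -103 to -98 and a RUNX match from -6 to -1.
Il1rl1 upstream start, chr1:40429320-40429619, forward strand: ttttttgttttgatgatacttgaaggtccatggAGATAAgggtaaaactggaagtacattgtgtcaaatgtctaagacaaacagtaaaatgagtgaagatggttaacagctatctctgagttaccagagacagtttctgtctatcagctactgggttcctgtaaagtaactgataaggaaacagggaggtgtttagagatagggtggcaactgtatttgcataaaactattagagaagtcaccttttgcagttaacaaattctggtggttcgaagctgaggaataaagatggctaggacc
Il1rl1 downstream start, chr1:40439379-40439678, forward strand: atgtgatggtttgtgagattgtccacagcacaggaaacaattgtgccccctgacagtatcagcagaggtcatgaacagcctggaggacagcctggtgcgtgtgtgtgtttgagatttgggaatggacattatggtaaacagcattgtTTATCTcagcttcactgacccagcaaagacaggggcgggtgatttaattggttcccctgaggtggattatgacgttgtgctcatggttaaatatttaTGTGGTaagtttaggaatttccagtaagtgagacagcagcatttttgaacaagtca

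The other genes of this stretch of chromosome 1 took different courses. Of 8 listed neighbours that are not among the 8 genes, 5 were tested, and 0 passed edgeR's test in either direction (1 higher at an unadjusted p of 0.05, 1 higher by DESeq2, 0 by limma-voom). Over all tested genes, 6.95% were higher and 8.82% lower at that unadjusted p, and DESeq2 called 3.42% higher and 4.69% lower. Il1r2, the decoy receptor of interleukin 1, was at 14.4, 13.4 and 93.8 CPM in ILC1 replicates 1 to 3 and at 3.10, 2.72 and 8.31 CPM in NK replicates 1 to 3. It was highest in the library with the macrophage genes (log2 fold change 3.10 ± 0.99 SE, edgeR adjusted p = 0.262). Its log2 fold change was 1.53 without ILC1 replicate 3 and 0.70 in the matrix-rich libraries alone. Il1r1, the signalling receptor of interleukin 1, was at 12.9, 14.8 and 1.80 CPM in ILC1 replicates 1 to 3 and at 0.250, 0 and 10.8 CPM in NK replicates 1 to 3. Its high libraries were those of Il1rl1. Il1rl2, the receptor chain for interleukin 36, had a log2 fold change of 1.49 ± 1.03 (SE), with 19.5 CPM in ILC1 replicate 3 and at most 4.30 CPM elsewhere, and without that library it was 0.012.

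Ifng (chr10:118441046-118445892, forward strand) encodes IFN-gamma, the main effector cytokine of both cell types. It had 104, 97.7 and 34.0 CPM in ILC1 replicates 1 to 3 and 123, 120.5 and 167 CPM in NK replicates 1 to 3. All ILC1 libraries were below all NK libraries, and ILC1 replicate 3, which also held the macrophage genes, was far below the other ILC1 libraries. The means were 78.5 ± 38.6 CPM in ILC1s, against 137 ± 26.4 CPM in NK cells (SD, n = 3 each). The log2 fold change was -0.80 ± 0.43 (SE, edgeR adjusted p = 0.422, DESeq2 adjusted p = 0.276), and without ILC1 replicate 3 it was -0.46. In the matrix-rich libraries alone, which hold 1 NK library, it was -0.77. Of all tested genes, 23.8% were lowest in ILC1 replicate 3, as Ifng was.

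Of the exon bases of Ifng, 25.95% are also annotated as the gene model Gm49751 on the same strand. Gm49751 had 23.2, 17.5 and 5.74 CPM in ILC1 replicates 1 to 3 and 23.2, 23.0 and 39.5 CPM in NK replicates 1 to 3. The sum of both was 94.0 ± 47.3 CPM in ILC1s, against 165 ± 35.9 CPM in NK cells (SD, n = 3 each), a log2 ratio of the means of -0.82. The sum thus gave nearly the difference of Ifng alone.

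Ifngas1, the long noncoding RNA beside Ifng on the opposite strand, had 1.00, 0.536 and 0 CPM in ILC1 replicates 1 to 3 and 10.9, 5.08 and 3.56 CPM in NK replicates 1 to 3. The count of 0 allows up to 0.174 CPM in ILC1 replicate 3, for counting error only. The cell types did not overlap, and the log2 fold change, which depends on the prior count of the fit, was -3.65 ± 1.29 (SE, edgeR adjusted p = 0.280, DESeq2 adjusted p = 0.0274). Dyrk2, a kinase gene farther along chromosome 10, had 54.2 ± 8.43 CPM in ILC1s, against 85.9 ± 5.77 CPM in NK cells (SD, n = 3 each) and was called lower by DESeq2 (adjusted p = 0.00673) but not by edgeR (adjusted p = 0.160). Of the 6 tested neighbours of Ifng, 0 passed edgeR's test (2 lower at an unadjusted p of 0.05 and by DESeq2, 0 by limma-voom), and the median log2 fold change was -0.009. The neighbouring cytokine gene Il22 had at most 0.0487 CPM in any library and its copy Iltifb had no count.

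Ifngr1 (chr10:19591949-19610229, forward strand) encodes the chain that binds IFN-gamma and is associated with JAK1. It had 778, 698 and 775 CPM in ILC1 replicates 1 to 3 and 1599, 1500.0 and 1039 CPM in NK replicates 1 to 3. The ILC1 libraries lay close together and below every NK library, of which replicate 3 was the lowest. The means were 750.5 ± 45.3 CPM in ILC1s, against 1380.0 ± 299 CPM in NK cells (SD, n = 3 each), with a log2 fold change of -0.88 ± 0.20 (SE). The edgeR adjusted p was 0.156 and the DESeq2 adjusted p 0.00155. Without NK replicate 3 the log2 fold change was -1.04 and passed edgeR's test (adjusted p = 0.0372), and in the matrix-rich libraries alone it was -0.53.

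Ifngr2 (chr16:91547072-91565623, forward strand) encodes the signalling chain associated with JAK2, whose amount is known to limit the IFN-gamma response of T cells. It had 14.4, 17.4 and 65.5 CPM in ILC1 replicates 1 to 3 and 2.60, 2.05 and 9.18 CPM in NK replicates 1 to 3. The raw counts were 259, 358 and 1131 in ILC1s and 52, 40 and 191 in NK cells. Every ILC1 library was above every NK library, and the highest library of each cell type was replicate 3. Its log2 fold change was 2.81 ± 0.90 (SE, edgeR adjusted p = 0.261, DESeq2 adjusted p = 0.00922). It was 1.76 without ILC1 replicate 3, 3.81 without NK replicate 3 and 0.75 in the matrix-rich libraries alone.

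Macrophages express both chains, and ILC1 replicate 3 held the macrophage genes. The 16 macrophage and monocyte genes summed to 920.0, 780.5 and 15600.0 CPM in ILC1 replicates 1 to 3 and to 1279, 1118 and 1051 CPM in NK replicates 1 to 3. None of the 16 was at 0 in all libraries. The lysozyme gene Lyz2 was at 117, 94.2 and 5838 CPM in ILC1s, against at 29.8, 32.8 and 92.6 CPM in NK cells, while Ccr2, with 474 to 944 CPM in ILC1s, against 720 to 1012 CPM in NK cells, made up much of the sum outside ILC1 replicate 3. Between ILC1 replicates 1 and 2 and NK replicates 1 and 2, the sum was lower in the ILC1 libraries. Ccr2 was lower in them too, with 506 and 474 CPM against 1012 and 945 CPM. Lyz2 and Ifngr2 were higher in these ILC1 libraries, and the genes of the list went in both directions there. The part of macrophages in the Ifngr2 level of any library was not tested.

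**Figure D3:**
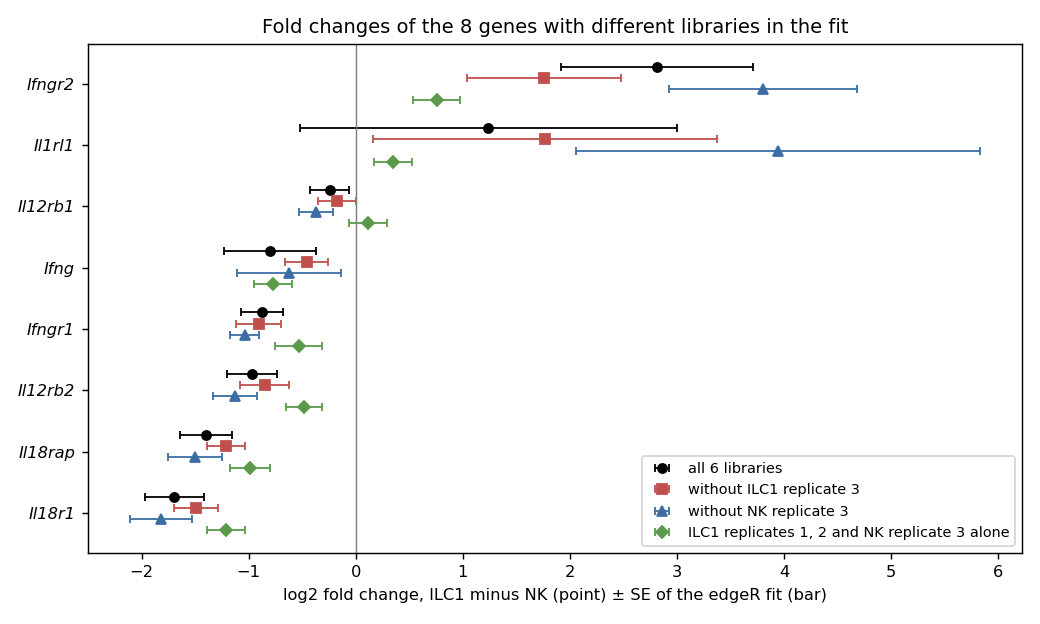
Log2 fold change (ILC1 minus NK) of each gene with its SE from edgeR's fit, for all 6 libraries, without ILC1 replicate 3, without NK replicate 3, and for ILC1 replicates 1 and 2 with NK replicate 3 alone. Il18r1, Il18rap, Il12rb2, Ifngr1 and Ifng stay below 0 in the 4 fits shown, Ifngr2 and Il1rl1 stay above 0 with a wide spread, and Il12rb1 lies on both sides of 0.

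The chains of one receptor can be compared within a library, where library size cancels. Counts of Il12rb2 were 54.5, 45.3 and 44.4% of those of Il12rb1 in ILC1 replicates 1 to 3 and 84.9, 79.0 and 75.8% in NK replicates 1 to 3. Il12rb2 was thus lower relative to its partner in every ILC1 library. The log2 ratio was -1.06 ± 0.16 in ILC1s and -0.33 ± 0.08 in NK cells (SD, n = 3 each), a difference of -0.74 ± 0.10 (SE). Counts of Il18rap were 158, 169 and 174% of those of Il18r1 in ILC1 replicates 1 to 3 and 122, 144 and 139% in NK replicates 1 to 3. The difference in log2 ratio was 0.31 ± 0.08 (SE), small beside the fall of both chains by DESeq2.

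Counts of Ifngr2 were 1.85, 2.50 and 8.45% of those of Ifngr1 in ILC1 replicates 1 to 3 and 0.162, 0.137 and 0.883% in NK replicates 1 to 3. The chains were thus far apart in both cell types, and less so in ILC1s. The difference in log2 ratio was 3.64 ± 1.08 (SE), and 1.28 in the matrix-rich libraries alone. Each of the 3 ratios separated the cell types without overlap. For Ifngr2 to Ifngr1 this was fixed in advance, since Ifngr2 was higher and Ifngr1 lower in every ILC1 library. How often other gene pairs separate was not tested. Each of the 3 ratios had an exact two-sided permutation p of 0.1, also 0.1 when adjusted over the 3 ratios. This is the smallest value that 3 against 3 libraries can give, and for Ifngr2 to Ifngr1 it adds nothing to the levels of the chains.

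**Figure D4:**
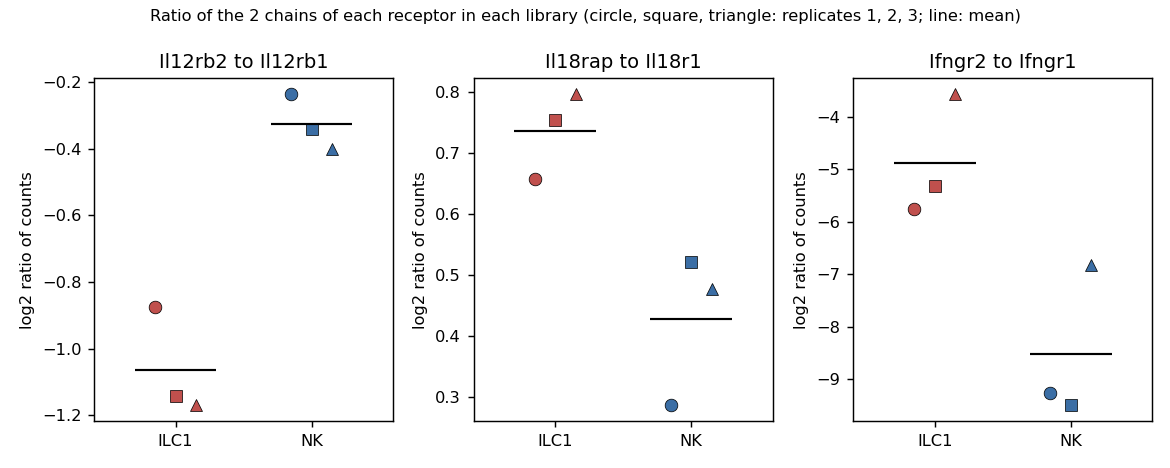
Log2 ratio of the counts of the partner chains in each library (ILC1 left in red, NK right in blue; circle, square and triangle for replicates 1, 2 and 3; line at the mean). The Il12rb2 to Il12rb1 ratio is lower in all ILC1 libraries, and the other two ratios are higher in all ILC1 libraries.

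Levels of different genes were compared per length, as CPM per kilobase of annotated exons (RPKM). In ILC1s the order was Ifngr1 with 264 ± 15.9 RPKM, Ifng with 60.6 ± 29.8, Il12rb1 with 26.7 ± 2.75, Il18rap with 26.3 ± 6.99, Il18r1 with 22.3 ± 6.98, Il12rb2 with 14.0 ± 2.97, Ifngr2 with 8.62 ± 7.62 and Il1rl1 with 8.58 ± 7.39 RPKM (SD, n = 3). Only Ifngr1 was set apart from the next gene, and every other pair of neighbours in that order overlapped. In NK cells it was Ifngr1 with 485 ± 105 RPKM, Ifng with 106 ± 20.4, Il18r1 with 72.2 ± 12.7, Il18rap with 69.1 ± 10.1, Il12rb1 with 31.7 ± 6.25, Il12rb2 with 27.5 ± 5.99, Il1rl1 with 3.63 ± 5.34 and Ifngr2 with 1.22 ± 1.05 RPKM. There Il18r1 overlapped Il18rap, Il12rb1 overlapped Il12rb2 and Il1rl1 overlapped Ifngr2, while the other neighbours were apart. The IL-18 receptor genes thus stood above Il12rb1 in NK cells and overlapped it in ILC1s. These levels use all annotated exons, and those of Ifng and Il12rb2 are lower bounds where shared exon bases were not counted.

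The genes that carry the signal of these receptors were read from lists chosen with earlier results known. For this and the lists below, the shares over all tested genes were 6.95% higher and 8.82% lower at an unadjusted p of 0.05. By DESeq2 they were 3.42% higher and 4.69% lower. Of 9 IL-12 receptor signalling genes, 0 passed edgeR's test (2 lower at an unadjusted p of 0.05 and by DESeq2, 0 by limma-voom), with a median log2 fold change of -0.24. The 2 were Stat4 and Tyk2. Stat4, the transcription factor activated by IL-12, had 91.7, 75.9 and 59.3 CPM in ILC1 replicates 1 to 3 and 189, 173 and 125 CPM in NK replicates 1 to 3 (log2 fold change -1.10 ± 0.23 SE, DESeq2 adjusted p = 0.000937). Tyk2, the kinase bound to IL-12Rb1, had 121 ± 17.3 CPM in ILC1s, against 198 ± 30.8 CPM in NK cells (SD, n = 3 each). Neither gene overlapped between the cell types. Stat3 and Socs1, next in the list by p, overlapped, with log2 fold changes of -0.32 and -0.36.

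The adaptors and kinases downstream of the IL-18 receptor were read in the same way. Of 19 genes of MyD88 and NF-kappaB signalling, 0 passed edgeR's test (1 lower at an unadjusted p of 0.05, 0 by DESeq2 and by limma-voom), and the median log2 fold change was -0.14. Tab2, an adaptor of the kinase TAK1, had 318 ± 44.5 CPM in ILC1s, against 428 ± 38.1 CPM in NK cells (SD, n = 3 each). Ikbkg and Nfkb1 had log2 fold changes of -0.33 and -0.32. Irak3, an inhibitory member of the kinase family that macrophages express, had 22.2 CPM in ILC1 replicate 3 and at most 1.39 CPM in the other libraries, and its log2 fold change of 2.75 became -0.33 without that library.

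Ligands of these receptors were low throughout or were highest in ILC1 replicate 3, where the macrophage markers were highest. Of 12 listed cytokine and decoy genes, 10 were in the table and 5 were tested, with 0 passing edgeR's test (1 higher at an unadjusted p of 0.05, 0 by DESeq2 and by limma-voom). Il12a and Il12b, the subunits of IL-12, had at most 0.811 and 0.637 CPM in any library. Il18 had 1.67, 1.66 and 8.23 CPM in ILC1 replicates 1 to 3 and 0, 0.257 and 1.49 CPM in NK replicates 1 to 3, where the count of 0 allows up to 0.150 CPM. Il1b had 4355 CPM in ILC1 replicate 3 and 17.8 to 126 CPM in the other libraries, and Il1a had 238 CPM there and at most 22.3 CPM elsewhere. Il23a, a subunit of interleukin 23, had 5.91 CPM in that library and at most 1.67 CPM elsewhere.

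Other receptors of these families went in both directions. Of 10 genes 7 were tested and 0 passed edgeR's test (1 higher at an unadjusted p of 0.05 and by DESeq2, which was Il1r2, 0 by limma-voom). Il6st, the signalling chain shared by interleukin 6 and interleukin 27, had 52.8, 63.2 and 45.5 CPM in ILC1 replicates 1 to 3 and 14.4, 11.1 and 41.8 CPM in NK replicates 1 to 3. Of the NK libraries, replicate 3 was again the one close to ILC1s. The log2 fold change of Il6st was 1.26 ± 0.53 (SE, edgeR adjusted p = 0.328), and without NK replicate 3 it was 2.08 and passed edgeR's test (adjusted p = 0.0342). Il1rap, the accessory chain for ST2 and for the interleukin 1 receptor, had 29.1 ± 3.89 CPM in ILC1s, against 17.7 ± 7.66 CPM in NK cells, and Sigirr, an inhibitory member of the family, had 83.6 ± 17.4 CPM in ILC1s, against 111 ± 16.5 CPM in NK cells (SD, n = 3 each).

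Among 24 factors reported to act on Ifng transcription or mRNA, 0 passed edgeR's test (2 higher and 6 lower at an unadjusted p of 0.05, by DESeq2 1 higher and 3 lower, and 0 by limma-voom), with a median log2 fold change of -0.19. Eomes, a T-box activator of Ifng that is also 1 of the 7 NK cell marker genes, had 170.1, 137 and 68.4 CPM in ILC1 replicates 1 to 3 and 562, 559 and 361 CPM in NK replicates 1 to 3. Like Ifng it was lowest in ILC1 replicate 3, but the gap to NK cells was wide in all ILC1 libraries (DESeq2 adjusted p = 5.69e-06). Zfp36l2, an RNA-binding protein that promotes decay of cytokine mRNAs, was 1039 ± 238 CPM in ILC1s, against 1882 ± 77.1 CPM in NK cells (SD, n = 3 each, DESeq2 adjusted p = 0.000532). Gadd45g, a stress sensor that sustains p38 signalling downstream of IL-12 and IL-18, was the gene called higher by DESeq2, with 75.3 ± 13.3 CPM in ILC1s, against 43.1 ± 1.03 CPM in NK cells (SD, n = 3 each, adjusted p = 0.00204). Tbx21, which encodes T-bet, overlapped, with 207 to 246 CPM in ILC1s, against 195 to 298 CPM in NK cells.

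Of 11 genes of IFN-gamma receptor signalling and its inhibitors, 0 passed edgeR's test (1 lower at an unadjusted p of 0.05 and by DESeq2, 0 by limma-voom), with a median log2 fold change of -0.11. That gene was Jak1, the kinase of IFNGR1, with 643, 555 and 524 CPM in ILC1 replicates 1 to 3 and 1359, 1479 and 1025 CPM in NK replicates 1 to 3. Its log2 fold change was -1.17 ± 0.19 (SE, edgeR adjusted p = 0.105, DESeq2 adjusted p = 4.74e-07), and without NK replicate 3 it was -1.30 and passed edgeR's test (adjusted p = 0.035). Usp18 and Socs1, which encode inhibitors of the pathway, had log2 fold changes of -0.45 and -0.36.

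IFN-gamma response genes showed no common direction. Of 38 tested, 19 had a positive and 19 a negative log2 fold change, with a median of 0.006, and 0 passed edgeR's test (3 higher and 6 lower at an unadjusted p of 0.05, 1 higher and 5 lower by DESeq2, which gave no adjusted p for 4, 0 by limma-voom). The guanylate-binding protein genes Gbp5, Gbp8 and Gbp4 had log2 fold changes of -0.71 ± 0.14, -0.54 ± 0.12 and -0.51 ± 0.14 (SE). Gbp5 had 50.04, 48.5 and 61.2 CPM in ILC1 replicates 1 to 3 and 95.2, 84.5 and 82.3 CPM in NK replicates 1 to 3. The interferon-inducible GTPase gene Ifi47 had 98.8 ± 8.12 CPM in ILC1s, against 145 ± 21.3 CPM in NK cells (SD, n = 3 each). These 4 genes, named because they had the smallest edgeR p of the list, were lower in every ILC1 library, and DESeq2 called all 4 lower. In the whole list of 38, 8 were lower and 6 higher without overlap, against 13.3% and 12.5% of all tested genes. Gbp2 was the gene DESeq2 called higher, with 191, 253 and 361 CPM in ILC1 replicates 1 to 3 and 81.5, 73.2 and 171 CPM in NK replicates 1 to 3. The chemokine gene Cxcl9 had 313 CPM in ILC1 replicate 3 and at most 41.4 CPM elsewhere. Without ILC1 replicate 3 the median of the list was -0.19.

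**Figure D5:**
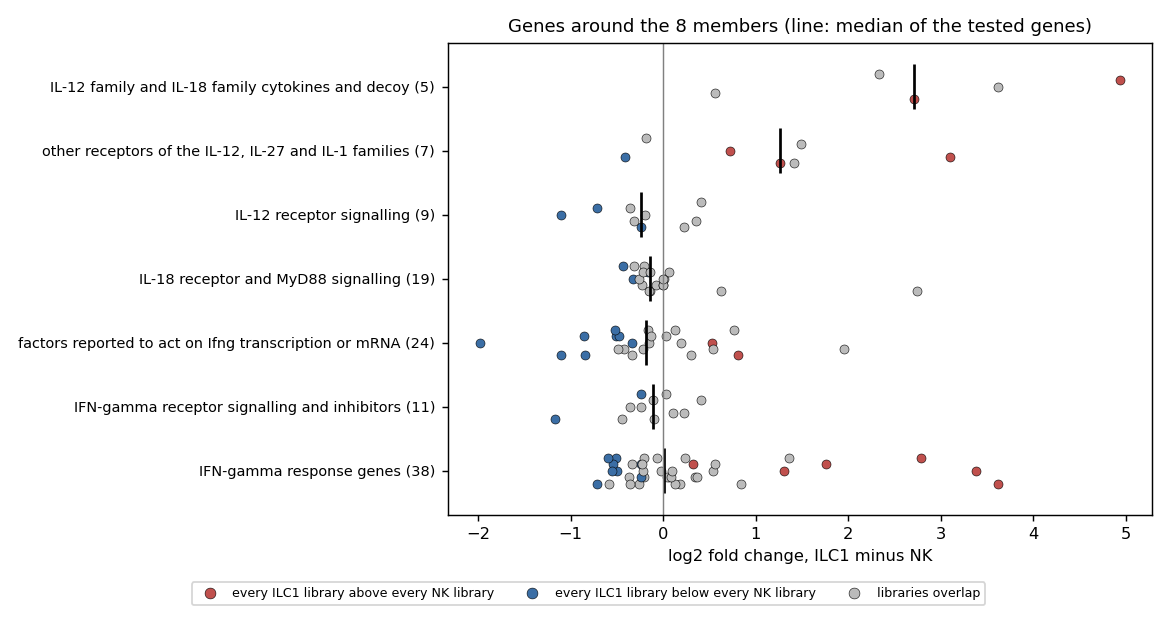
Log2 fold change (ILC1 minus NK) of the tested genes of 7 lists, with the number tested in brackets and a black line at the median; red and blue mark genes whose ILC1 libraries all lie above or all below the NK libraries, and points are spread vertically for legibility. The signalling lists centre near 0 with single genes such as Stat4, Eomes and Jak1 to the left, and the cytokine list lies to the right, where its values are highest in ILC1 replicate 3.

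For each of the 8 genes, the 3 genes with the most similar course over the 6 libraries were found among tested genes with a mean of at least 10 CPM. Likeness was the root mean square difference of the centred log2 CPM profiles, and smaller is closer. Ifng was closest to Klf2, a transcription factor of lymphocyte trafficking, with a difference of 0.072, and then to Znrf3 (0.127) and Rfx3 (0.148). Klf2 had 226, 231 and 79.7 CPM in ILC1 replicates 1 to 3 and 309, 299.6 and 419 CPM in NK replicates 1 to 3. It was thus also lowest in ILC1 replicate 3 and highest in NK replicate 3, which follows from its choice by likeness to Ifng.

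Il18r1 was closest to Zfp831 (0.094), St3gal6 (0.109) and Mgst2 (0.12), and Il18rap to Nod1, a bacterial peptidoglycan sensor (0.047), Mcoln2 (0.092) and Jakmip1 (0.097). Il12rb2 was closest to Sh2d3c (0.042), Abcb1a (0.071) and Arsb (0.078), and Il12rb1 to Sf3a1 (0.043), Scaf1 (0.045) and Gatad2a (0.056). Ifngr1 was closest to Arhgap4 (0.056), Pde4d (0.057) and Sh2d1b1 (0.06), the last of which encodes the NK cell adaptor EAT-2. Ifngr2 had less close neighbours, in Rgcc (0.175), Scamp1 (0.19) and Egln3 (0.196). Il1rl1 was closest to Ano1 (0.18), Fgfr1, a fibroblast growth factor receptor gene (0.279), and Kank2 (0.317). Each was high in the matrix-rich libraries, which follows from their choice by likeness to Il1rl1 and adds nothing to its own values.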

How the data were processed

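The authors deposited raw counts per gene symbol for 6 libraries, 3 of each cell type. Oligo(dT) capture, random-hexamer priming and 50-base single-end sequencing are described per the labels' protocols. The submitters' processing notes list HISAT2 2.1.0, featureCounts 2.0.1 and GRCm38, without the annotation release, strand setting or handling of multiply mapped reads. PCR copies were not removed by any molecular identifier that the labels mention. Columns were matched to samples by name.

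CPM used TMM-scaled library sizes, and RPKM the exon union of GENCODE M21. ILC1s were set against NK cells with R 4.3.3 and edgeR 4.0.16 (filterByExpr, robust quasi-likelihood fit, cell type as the only term), checked on simulated data. DESeq2 1.42.0 and limma-voom 3.58.1 were alternatives, as were RLE and upper-quartile scaling, omitting the low-count filter, requiring a mean of 5 CPM, blocking on replicate number, dropping single libraries, adding a library-set term, and weighting libraries. The sum of Ifng and Gm49751 and lengths from exon bases of a single gene were added after seeing the data. Receptor ratios added 0.5 to each count. No 2 libraries were alike within counting noise. The members, lists and library sets were chosen with earlier results of these data known. The genes named in the text are the 8 members, the 4 of each pathway list with the smallest edgeR p, the 3 highest of a marker list and the 3 most similar to each member, as far as they bear on a result. Of these, 1 gene is not reported here. Named after their values were seen were Cpa3, Il5, Foxp3, Ikzf4, Tnfrsf4, Itgam, Lum, Fap, Il1r1, Il22, Iltifb, Il12a, Il12b, Il33, Tbx21, Ncr1, Cd7, Areg, Gbp2, Cxcl9, Gm49751 and Serbp1.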

Additional observations from a re-analysis of the deposited data

How the results depend on the processing

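The 12 genes called over all genes became 138 with no low-count filter (2 of the 8 members), 33 with a term for library sets, 1891 in the 3 matrix-rich libraries alone (5 members), 2297 with library weights in limma-voom (5 members), 1010 with DESeq2 (5 members) and 0 with a replicate block. With single libraries left out, 0 to 449 genes and 0 to 2 members were called; 449 was without NK replicate 3, and 0 without ILC1 replicate 1 or 2 or NK replicate 1 or 2. The cause was not tested. RLE, upper-quartile scaling, a minimum mean of 5 CPM and limma-voom called 0 members. Of the 16 fits, Il18r1 passed in 5, Il18rap in 4, Il12rb2, Ifngr1 and Ifngr2 in 3, Ifng in 1 and Il12rb1 and Il1rl1 in 0. For Ifng that fit was the matrix-rich libraries alone, with 1 NK library, whose calls do not measure the spread among NK libraries.

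Il12rb1 reversed, with 0.15 under the term for library sets and 0.11 in the matrix-rich libraries alone. So did, in the same order, Sf3a1 (0.24 and 0.20), Scaf1 (0.11 and 0.068), Gatad2a (0.14 and 0.095), Il1a (-0.095 and -0.14), Il1rl2 (-0.42 and -0.46) and Irak3 (-0.55 and -0.59). Irak3 was -0.28 with library weights and, with single libraries left out, ran from -0.33 (without ILC1 replicate 3) to 3.30. Nup107, a nucleoporin gene near Ifng with 0.14 in all libraries, ran from -0.013 (without ILC1 replicate 2) to 0.35. The other members kept their sign in every fit.

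The labels do not say whether same-numbered samples belong together. Deviations of same-numbered libraries from their cell type's mean correlated at -0.34, -0.32 and -0.53. No ILC1 library correlated best with its own number. These values cannot decide whether samples were paired, since the deviations also carry the differences of the libraries that stand apart. The replicate block left the ratio differences at -0.74, 0.31 and 3.64, each with an exact p of 0.25. With single libraries left out these ran from -0.83 to -0.68, from 0.24 to 0.36 and from 2.99 to 4.50. In the matrix-rich libraries alone they were -0.61, 0.23 and 1.28. Of the 16 per-length levels, 9 moved by more than 1 SD under another gene length and 0 under unscaled totals.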
